A study of Mus musculus with 12 samples.

Results

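The genes described here are 36 type I interferon antiviral genes, a module of genes that cells switch on when interferon reaches its receptor. They were chosen by gene symbol from a fixed list and not by their values. All 36 were found among the 47643 genes of the expression table, and 33 were abundant enough to be tested, among 13082 tested genes. RNA had been sequenced in bulk in 12 libraries. The labels describe the source as naive CD4+ T cells of C57BL/6 mouse spleen. All groups shared a 3-day stimulation of the T cell receptor (anti-CD3, 2 μg/ml) and of its co-receptor (anti-CD28, 2 μg/ml).

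The first group held Tnfr2-/- cells, which lack TNF receptor 2 (TNFR2, gene Tnfrsf1b), cultured with 20 ng/ml TNF plus 2 ng/ml TGF-β. The second held wild-type (WT) cells with the same TNF+TGF-β. The third held WT cells given 20 ng/ml IL-6 plus 2 ng/ml TGF-β, the usual conditions for Th17 cells. The fourth held WT cells with no added cytokine, called Th0. Each group had 3 libraries. The labels do not say whether those came from separate mice or cultures, so the p-values measure only the spread between these libraries, which may be technical. No Tnfr2-/- Th0 cells and no cells with TGF-β alone were analysed here, so the receptor's part without cytokines and the part of TGF-β could not be separated. The age and sex of the mice and the design of the Tnfr2 deletion were not given in the sources used here.

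Type I interferons (IFN-α and IFN-β) bind the receptor IFNAR1 and IFNAR2, whose kinases JAK1 and TYK2 phosphorylate STAT2. STAT2 joins IRF9 in the complex ISGF3, which binds interferon-stimulated response elements (ISRE) in the promoters of antiviral genes. Interferon-γ acts at GAS elements and induces part of the same genes, among them Irf1 and Cxcl10. T cells carry both receptors, and interferon at the time of activation shapes their growth and helper fate.

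RefSeq promoter windows (GRCm38.p6, 250 bases before to 50 bases after the transcript start) were found for 26 of the 36 genes. An ISRE was searched for as 2 GAAA blocks separated by any 2 bases, and a GAS element as TTC and GAA separated by any 3 bases, each on both strands. ISRE letters were present in 12 of the 26 genes (46.2%), against 3.99% of all 27025 genes with a window. GAS letters were present in 8 of the 26 (30.8%), against 9.55% of all genes. A run of 3 GAAA blocks, each 2 bases apart, was found in Isg15, Oas1a and Bst2 (11.5% of the 26 genes) and in 0.133% of all genes. The windows below are shown because these genes fell together in cytokine-treated WT cells and then differed in direction without TNFR2, or did not pass the test there. Capitals mark ISRE letters, and in Irf1 GAS letters. The stretches are the 250 bases before the start, 5′ to 3′ on the gene's strand. For Ifih1, whose match began 32 bases after the start, 30 bases are given.

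Isg15 (chr4:156200819-156201068, minus strand): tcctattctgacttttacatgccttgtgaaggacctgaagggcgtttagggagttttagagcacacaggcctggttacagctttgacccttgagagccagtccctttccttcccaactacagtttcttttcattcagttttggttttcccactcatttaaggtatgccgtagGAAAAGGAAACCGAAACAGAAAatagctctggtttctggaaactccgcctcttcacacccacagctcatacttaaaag
Oas1a (chr5:120907526-120907775, minus strand): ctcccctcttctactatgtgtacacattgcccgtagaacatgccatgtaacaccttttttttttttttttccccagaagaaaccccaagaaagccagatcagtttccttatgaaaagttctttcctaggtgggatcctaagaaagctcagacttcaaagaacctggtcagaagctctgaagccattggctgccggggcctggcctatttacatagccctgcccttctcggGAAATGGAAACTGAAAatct
Bst2 (chr8:71537473-71537722, minus strand): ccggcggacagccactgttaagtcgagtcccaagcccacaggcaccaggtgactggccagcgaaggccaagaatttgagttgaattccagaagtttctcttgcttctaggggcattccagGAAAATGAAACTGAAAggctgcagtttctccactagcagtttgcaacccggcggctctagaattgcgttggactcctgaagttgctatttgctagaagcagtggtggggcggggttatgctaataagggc
Ifih1 (chr2:62646206-62646235, minus strand): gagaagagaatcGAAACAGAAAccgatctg
Cxcl10 (chr5:92348890-92349139, minus strand): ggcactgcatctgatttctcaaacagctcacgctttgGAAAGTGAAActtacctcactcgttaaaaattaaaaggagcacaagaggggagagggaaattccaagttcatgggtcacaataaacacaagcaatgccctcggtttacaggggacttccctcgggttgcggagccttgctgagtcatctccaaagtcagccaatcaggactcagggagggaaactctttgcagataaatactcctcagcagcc
Irf1 (chr11:53769764-53770013, plus strand): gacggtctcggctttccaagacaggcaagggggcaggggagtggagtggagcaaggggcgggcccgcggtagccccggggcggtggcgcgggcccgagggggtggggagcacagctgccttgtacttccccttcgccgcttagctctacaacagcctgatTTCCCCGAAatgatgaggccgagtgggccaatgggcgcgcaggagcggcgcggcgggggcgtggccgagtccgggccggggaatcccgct

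In Isg15 the GAAA blocks formed 3 overlapping matches, the first beginning 78 bases before the start. Oas1a and Bst2 each held 2 overlapping matches, which began 20 and 130 bases before the start. In Cxcl10 the single match began 213 bases before the start, and in Irf1 the GAS letters began 90 bases before it. In Bst2, GAS letters overlapped the ISRE letters. A match of letters is a description and not a shown binding site.

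Before the results, the libraries were checked against their labels. Tnfrsf1b was 4.87, 3.71 and 3.19 FPKM (fragments per length of transcript, scaled to library size) in the Tnfr2-/- libraries, all below the 17.39 to 108.17 FPKM of the WT libraries. Although the cells are labelled CD4+, Cd4 was below both Cd8a and Cd8b1 in 11 of the 12 libraries. The summed level of 6 T cell markers was 1481 to 2374 FPKM in Tnfr2-/- cells and 2342 to 2465 with TNF+TGF-β. It was 2060 to 2228 with IL-6+TGF-β and 2332 to 2611 in Th0. The summed level of 8 B cell markers was 1960 to 4307 FPKM in Tnfr2-/- cells, 263 to 340 in WT cells with TNF+TGF-β, 422 to 938 with IL-6+TGF-β and 769 to 1222 in Th0. The sum of 10 myeloid markers was 954 to 2218 FPKM in Tnfr2-/- cells, against 285 to 532 FPKM across the WT libraries. The sum of Cd8a and Cd8b1 was 29.5 to 78.9 FPKM in Tnfr2-/- cells, 307 to 358 with TNF+TGF-β, 256 to 343 with IL-6+TGF-β and 115 to 180 in Th0. Plasmacytoid dendritic cells are a main source of type I interferon. Of their 6 markers, Bst2 is itself one of the 36 genes. The summed level of the other 5 was 0.87 to 1.93 FPKM in Tnfr2-/- cells, 3.07 to 5.3 with TNF+TGF-β, 0.41 to 0.94 with IL-6+TGF-β and 0.26 to 0.63 in Th0. Siglech, their defining marker, was at most 0.23 FPKM and was 0 in 5 libraries, and Klk1 was 0 in 11. Smim5 was 0.07, 0.25 and 0.41 FPKM in Tnfr2-/- libraries, 4.14, 4.84 and 2.9 with TNF+TGF-β, 0.05 to 0.27 with IL-6+TGF-β and 0 in Th0, and the part of these markers in the results was not tested. In bulk RNA, fewer cells of a type and less RNA per cell cannot be told apart. In the table, 1 Tnfr2-/- library carries the number 4, which no label of its group carries, and it is called the library numbered 4. Its T cell marker sum, 1481 FPKM, was the lowest of the 12 libraries.

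As a group, the interferon genes were highest in Th0 cells, low with either cytokine pair in WT cells, and in between in Tnfr2-/- cells. The mean of the group was highest in Th0 for 24 of the 36 genes and in Tnfr2-/- cells for 12. It was lowest with IL-6+TGF-β for 19 genes, with TNF+TGF-β for 11, in Tnfr2-/- cells for 5 and in Th0 for 1. Ifi44, counted among the 19, was tied at a mean of 0 FPKM with IL-6+TGF-β and in Tnfr2-/- cells. These counts include Ifi44, Oas2 and Rsad2, which were too low to test, and the same order was not taken over all genes. For each library, the deviation of each of the 33 tested genes from its mean over all 12 libraries was taken on the log2(FPKM + 1) scale, and the median over the genes was used. This median was −0.11, 0.11 and 0.66 in the Tnfr2-/- libraries numbered 1, 2 and 4. It was −0.25, −0.29 and −0.56 with TNF+TGF-β, −0.58, −0.55 and −0.61 with IL-6+TGF-β, against 0.79, 0.47 and 0.81 in Th0. The Tnfr2-/- library numbered 4 lay within the Th0 range and the other 2 lay between the ranges of Th0 and of the treated WT libraries.

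**Figure D1:**
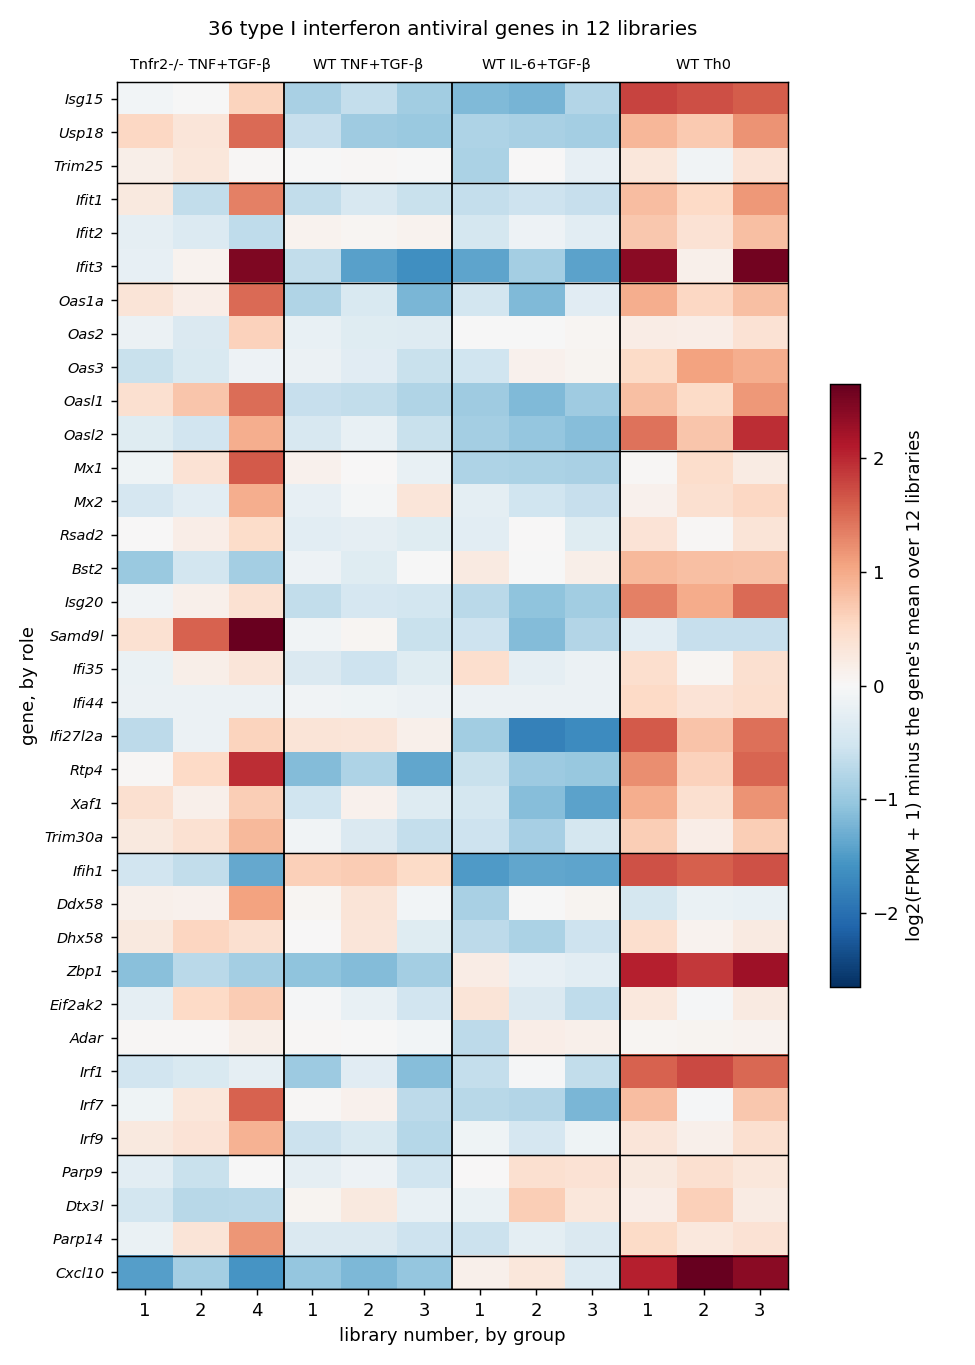
Heat map of the 36 genes (rows, grouped by role) in the 12 libraries (columns, grouped by treatment and labelled by library number). Colour is log2(FPKM + 1) minus the gene's mean over the 12 libraries. The Th0 columns are mostly red and the treated WT columns mostly blue. Ifih1, Zbp1, Irf1, Cxcl10 and Isg15 are among the darkest red in Th0, as is Ifit3 in Th0 replicates 1 and 3, and Ifih1 is paler red with TNF+TGF-β.

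The Tnfr2-/- library numbered 4 was the highest of its group for 25 of the 33 tested genes (75.8%), against 26.7% of all tested genes, and its B cell marker sum was also the highest of all libraries. Replicate 2 of Th0 was the lowest of its group for 21 of the 33 (63.6%, against 41.3% of all tested genes). Replicate 3 of TNF+TGF-β was the lowest of its group for 23 of the 33 (69.7%, against 41.3%). No such library stood out with IL-6+TGF-β, where each of the 3 was the lowest of its group for 30.3 to 36.4% of the tested genes. The B cell marker sum was also lowest in replicate 2 among the Th0 libraries, and in replicate 3 among the TNF+TGF-β libraries (263 FPKM, against 268 and 340). With IL-6+TGF-β, replicate 2 had the lowest B cell sum (422 FPKM, against 893 and 938). Its median of the interferon genes was the highest of that group (−0.546, against −0.585 and −0.608). The part of the B cell markers in these differences was not tested.

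**Figure D2:**
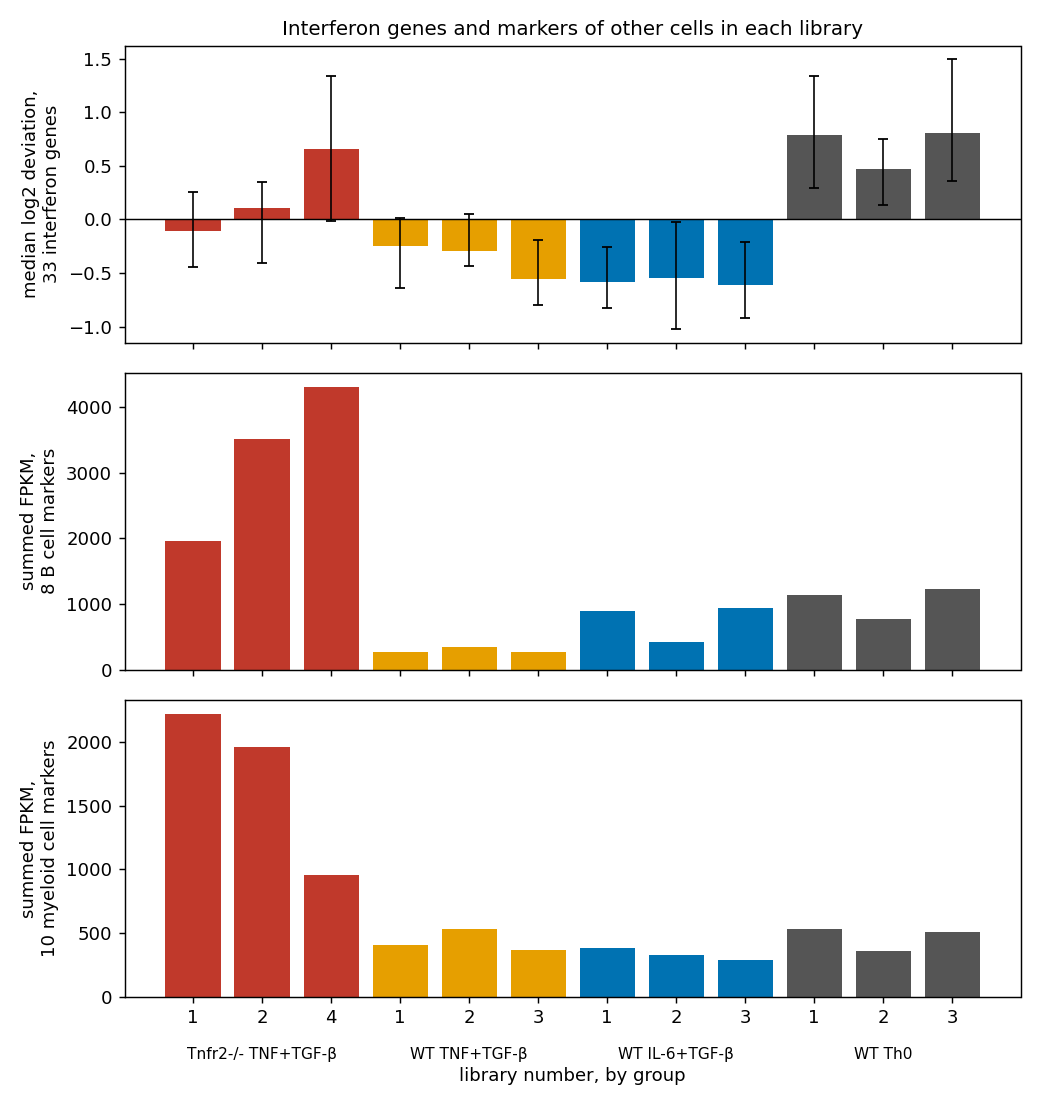
Top, the median deviation of the 33 tested interferon genes in each library (bars; whiskers are the quartiles over genes, on the log2 scale). Middle and bottom, the summed FPKM of 8 B cell and 10 myeloid markers in the same libraries; B cell markers reach 4307 FPKM in the Tnfr2-/- library numbered 4, where the interferon median is 0.66, while the myeloid sum of that library, 954 FPKM, is the lowest of its group.

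The first comparison asked what TNF with TGF-β changed in WT cells. Of the 33 tested interferon genes, 23 fell with TNF+TGF-β against Th0 and none rose. Across all tested genes, 13% fell and 18.7% rose. Of these interferon genes Ifit1, Oas3 and Mx2 would not have passed the filter on low values without the Th0 libraries, where their means were highest, so a fall of theirs was favoured by the filter; without them 21 of 30 fell. The split over all genes depended on scaling, since 58.9% of the called genes were higher here, 72.6% under TPM scaling and 48% under median-ratio scaling; 20 and 23 of the interferon genes were lower under these. The median difference of the 33 was −0.97 on the log2(FPKM + 1) scale, against 0.07 over all tested genes. The largest falls were those of the chemokine Cxcl10, the nucleic acid sensor Zbp1, the RNA-binding protein Ifit3, the modifier Isg15 and the transcription factor Irf1. The 10 genes that did not pass the test were Trim25, Mx1, Mx2, Samd9l, Ddx58, Dhx58, Eif2ak2, Adar, Irf7 and Dtx3l. In the same comparison all 8 B cell markers and 1 of 10 myeloid markers fell. Their part in the result was not tested.

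The second comparison asked the same of IL-6 with TGF-β. With IL-6+TGF-β against Th0, 22 of the 33 fell and none rose, while 9.15% of all tested genes fell and 14.1% rose. Without Ifit1, Oas3 and Mx2, 20 of 30 fell. The median difference was −1.13, against 0.04 over all tested genes. Ifih1, Ifit3, Isg15, Ifi27l2a and Oasl2 had the largest falls. The 11 genes that did not pass were Trim25, Mx2, Samd9l, Ifi35, Ddx58, Eif2ak2, Adar, Irf9, Parp9, Dtx3l and Parp14. Of these, Parp14 was called lower under a pseudocount of 0.1, a 5 FPKM filter, median-ratio scaling and a fit of the 6 compared libraries. Its differences there were −0.79 to −0.86 (adjusted p 0.00982 to 0.0476). Irf9 was called lower in the fit of the 6 libraries (−0.52, adjusted p = 0.0429) and Ifi35 without IL-6+TGF-β replicate 1 (−0.50, adjusted p = 0.0419). Such calls of Trim25 and Mx2 are given with those genes. Here 2 of 8 B cell markers and 4 of 10 myeloid markers fell, and their part was not tested. The comparisons of the cytokine pairs with Th0 share the same 3 Th0 libraries, so the genes that fell in each are given side by side and not as separate evidence.

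**Figure D3:**
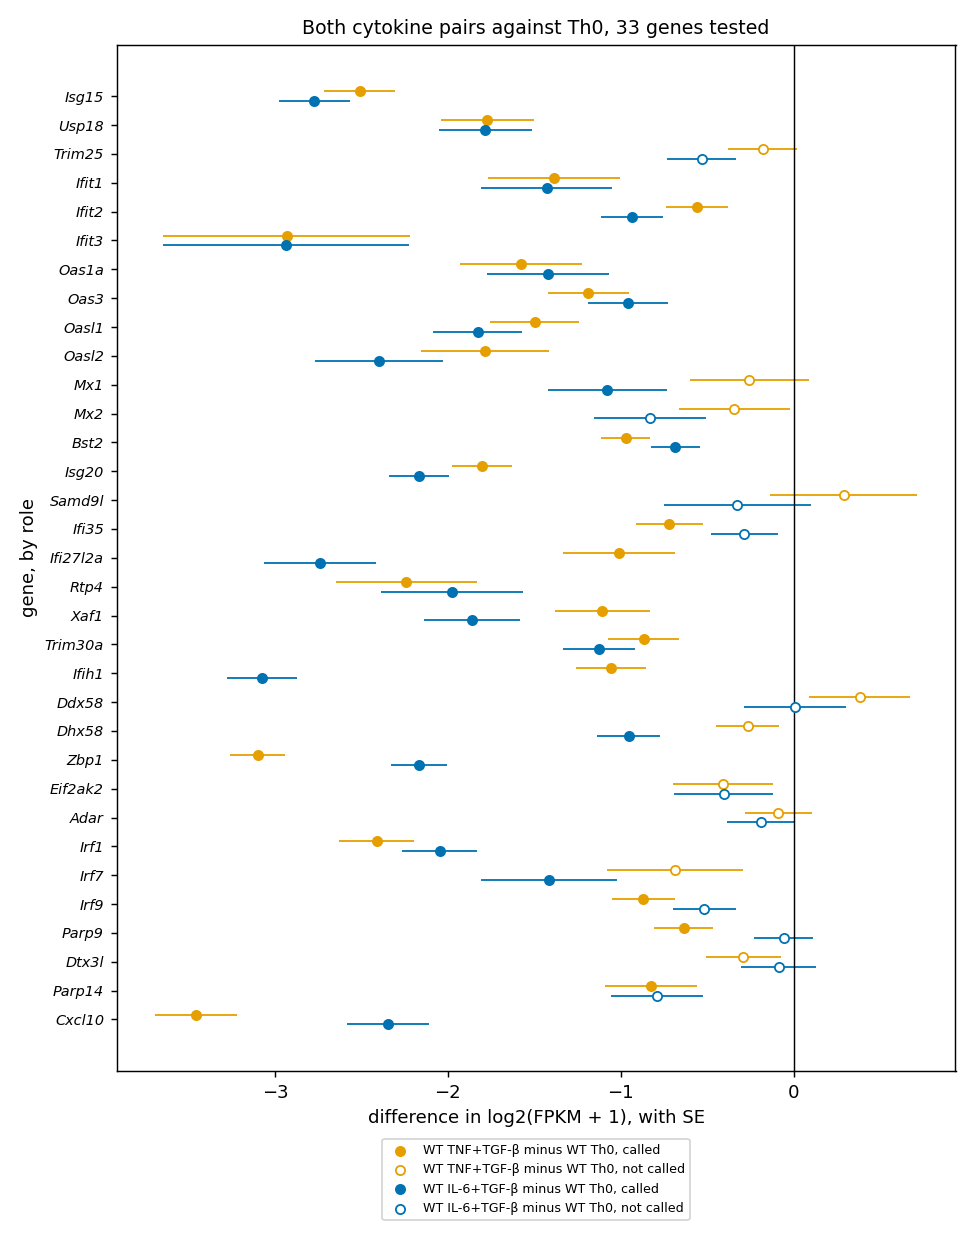
Difference in log2(FPKM + 1) from Th0 for the 33 tested genes, with TNF+TGF-β (orange) and IL-6+TGF-β (blue), 3 libraries a group; bars are the standard error, and filled points passed an adjusted p under 0.05. Filled points lie left of 0, and Ifih1 and Ifi27l2a are further left with IL-6+TGF-β while Zbp1 and Cxcl10 are further left with TNF+TGF-β.

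Compared directly, TNF+TGF-β and IL-6+TGF-β in WT cells differed in 6 of the 33 genes. Ifih1, Ifi27l2a and Dhx58 were higher with TNF+TGF-β, and Cxcl10, Zbp1 and Parp9 were lower. These 3 higher and 3 lower stand against 7.31% and 5.5% of all tested genes. The median difference was 0.10, against 0.00 over all tested genes (0.002). With TNF+TGF-β, 5 of 8 B cell markers were lower than under IL-6+TGF-β and none of the 10 myeloid markers was called; their part was not tested.

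Loss of TNFR2 was compared within TNF+TGF-β. Its 3 WT libraries are also those set against Th0 above, so the comparisons are not independent. In Tnfr2-/- cells 11 of the 33 genes were higher than in WT cells and 4 were lower, where 19.9% of all tested genes were higher and 17.5% were lower. Of all called genes 53.2% were higher here and 42.7% under TPM scaling, which left 11 interferon genes higher and 4 lower. The median difference was 0.51, against 0.00 over all tested genes (0.002). Isg15, Usp18, Ifit3, Oas1a, Oasl1, Isg20, Samd9l, Rtp4, Trim30a, Irf9 and Parp14 were higher, while the RNA sensor Ifih1, Bst2, Ifit2 and Dtx3l were lower. Zbp1, Cxcl10 and Irf1, which were among the 5 largest falls with TNF+TGF-β in WT cells, had differences of 0.13, −0.22 and 0.41 that did not pass the test. Irf1 was called higher when replicate 2 of WT TNF+TGF-β was left out (0.66, adjusted p = 0.022). All 8 B cell markers and 7 of 10 myeloid markers were higher in Tnfr2-/- cells, and Cd8a and Cd8b1 were lower. The median difference was 3.03 over the 8 B cell markers and 1.41 over all 10 myeloid markers. The part of these markers in the result was not tested.

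This comparison depended on single libraries. Without the library numbered 4, 9 genes were higher and 2 lower, with a median of 0.34. Ifit3 (1.18, adjusted p = 0.17), Parp14 (0.52, adjusted p = 0.0582), Ifit2 (−0.37, adjusted p = 0.145) and Dtx3l (−0.65, adjusted p = 0.0743) were then no longer called. Usp18 (1.28), Rtp4 (1.39), Oasl1 (1.27), Samd9l (1.19), Oas1a (1.07), Irf9 (0.89), Isg15 (0.76), Trim30a (0.71) and Isg20 (0.55) stayed higher, and Ifih1 (−1.17) and Bst2 (−0.58) stayed lower. Without replicate 1 of WT TNF+TGF-β, 9 were also higher and 2 lower, the same calls were lost, and the median was 0.51. Without replicate 3 of WT TNF+TGF-β, 9 were higher and 3 lower. Calls were also gained. Without replicate 2 of WT TNF+TGF-β, 12 were higher, Irf1 and Dhx58 (0.58, adjusted p = 0.0359) among them, and 2 lower. Without replicate 2 of Tnfr2-/-, 12 were higher, with Ifit1 (1.35, adjusted p = 0.00723), and 2 lower. Without replicate 1 of Tnfr2-/-, 15 were higher, with Ifi35, Mx1, Irf7 and Eif2ak2, and 4 lower. A fit of the 6 compared libraries added Ifi35 and Xaf1.

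Set against WT Th0, where genotype and cytokines differ together, Tnfr2-/- cells with TNF+TGF-β had 13 of the 33 genes lower and 1, Samd9l, higher. Of all tested genes 19.1% were lower and 29% higher. Of all called genes 60.4% were higher here and 48.8% under median-ratio scaling, which also gave 13 lower interferon genes and 1 higher. The median difference was −0.29, against 0.13 over all tested genes. The 13 lower genes were Isg15, Ifit2, Oas3, Oasl2, Bst2, Isg20, Ifi27l2a, Ifih1, Zbp1, Irf1, Parp9, Dtx3l and Cxcl10. Without Ifit1, Oas3 and Mx2, 12 of 30 were lower. Usp18, Oasl1, Rtp4, Trim30a, Irf9 and Parp14 had differences between −0.29 and 0.22 that did not pass the test. Without the library numbered 4, 17 genes were lower and the median was −0.72. Ifit1 (−1.03, adjusted p = 0.0107), Ifit3 (−1.76, adjusted p = 0.0367), Mx2 (−0.72, adjusted p = 0.0221) and Rtp4 (−0.85, adjusted p = 0.0359) were then called. Ifit1, Mx2 and Oas3 are among the 17 and passed the filter only because of Th0, so this count was favoured by the filter. In this comparison 7 of 8 B cell and 8 of 10 myeloid markers were higher in Tnfr2-/- cells, and their part was not tested.

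**Figure D4:**
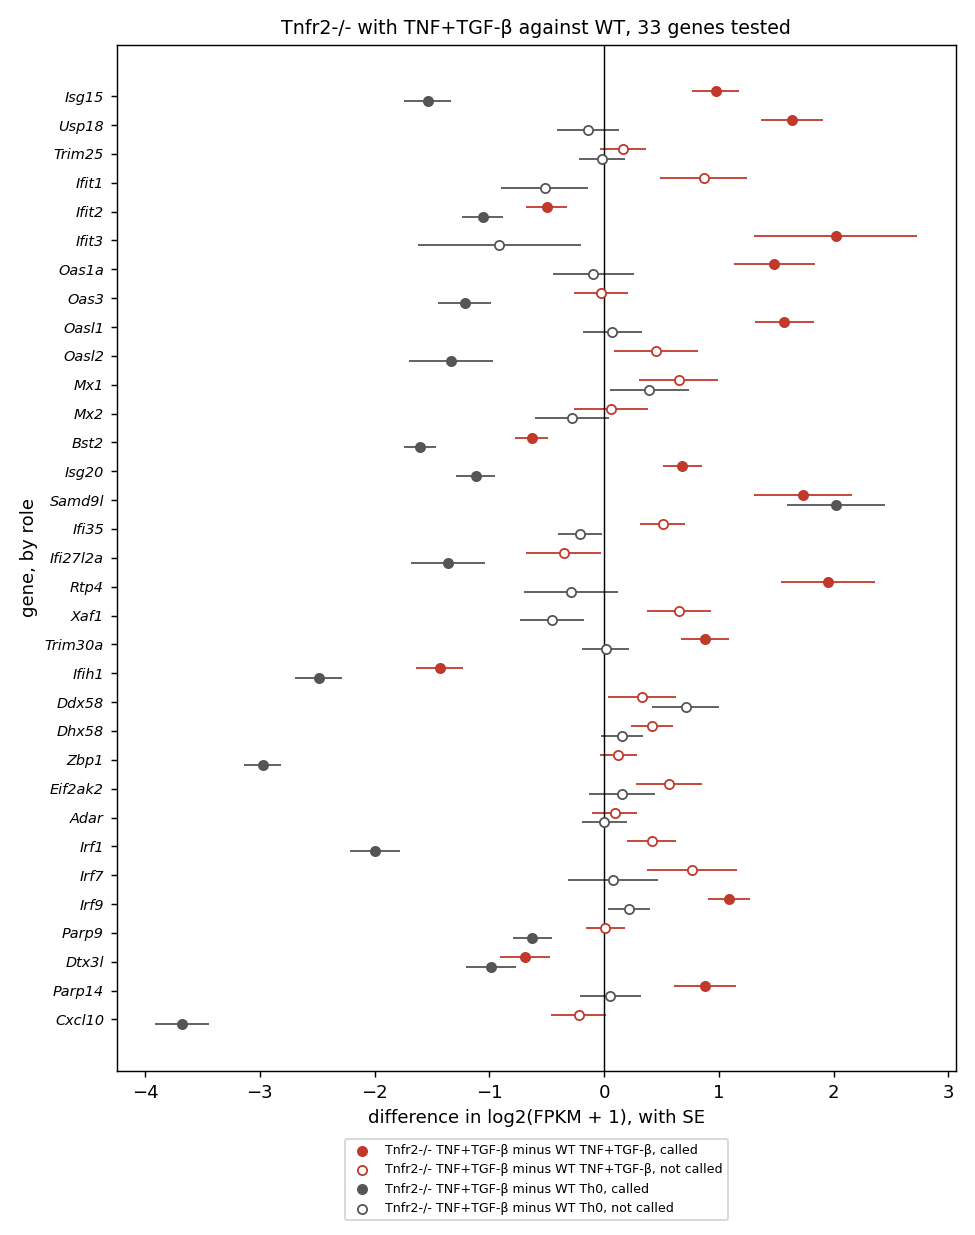
Difference in log2(FPKM + 1) of Tnfr2-/- cells with TNF+TGF-β from WT cells with TNF+TGF-β (red) and from WT Th0 cells (grey) for the 33 tested genes; bars are the standard error, and filled points passed an adjusted p under 0.05. Red points lie mostly right of 0 (11 filled) while Ifih1, Bst2, Ifit2 and Dtx3l are filled to the left, and for Cxcl10, Zbp1 and Irf1 the grey points lie at −3.68, −2.98 and −1.998.

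ISG15 is a small ubiquitin-like protein that is attached to other proteins during an antiviral response. Isg15 (ENSMUSG00000035692.6, chromosome 4, 156199424 to 156200818, GRCm38) had 4.46, 4.7 and 7.74 FPKM in Tnfr2-/- libraries, 2.2, 2.72 and 2.03 with TNF+TGF-β, 1.55, 1.44 and 2.36 with IL-6+TGF-β, against 18.9, 17.9 and 16.67 in Th0. The Tnfr2-/- libraries overlapped no WT group, and all 3 lay between the TNF+TGF-β and Th0 libraries. Isg15 fell with TNF+TGF-β by 2.51 ± 0.20 against Th0 (log2(FPKM + 1), SE; adjusted p = 3.32e-06) and with IL-6+TGF-β by 2.77 ± 0.20 (adjusted p = 1.59e-06). It was higher by 0.97 ± 0.20 in Tnfr2-/- cells than in WT cells with TNF+TGF-β (adjusted p = 0.00329) and still lower than in Th0 (−1.54, adjusted p = 0.000116).

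USP18 removes ISG15 from proteins and also dampens signalling at IFNAR2. Usp18 (ENSMUSG00000030107.10, chromosome 6, 121245906 to 121270917) had 7.53, 6.28 and 15.63 FPKM in Tnfr2-/- libraries, 2.86, 2.03 and 1.95 with TNF+TGF-β, 2.33, 2.25 and 2.12 with IL-6+TGF-β, against 9.86, 8.5 and 12.33 in Th0. The Tnfr2-/- libraries overlapped those of Th0 and lay above all treated WT libraries. The differences were 1.64 ± 0.27 in Tnfr2-/- against WT cells with TNF+TGF-β (adjusted p = 0.000683), −1.77 ± 0.27 with TNF+TGF-β against Th0 (adjusted p = 0.000435) and −1.78 ± 0.27 with IL-6+TGF-β against Th0 (adjusted p = 0.00046). TRIM25, a ubiquitin ligase that activates the sensor RIG-I, did not follow this pattern. Trim25 had 29.03, 32.25 and 26.34 FPKM in Tnfr2-/- libraries, 25.67, 26.29 and 25.8 with TNF+TGF-β, 13.97, 25.92 and 22.23 with IL-6+TGF-β, against 31.89, 24.01 and 33.51 in Th0. Trim25 was called in none of the 5 comparisons of the main fit. With IL-6+TGF-β against Th0 it was called lower under median-ratio scaling (−0.60, adjusted p = 0.045). The same call was made without Th0 replicate 2 (−0.68, adjusted p = 0.0478) and without IL-6+TGF-β replicate 2 (−0.71, adjusted p = 0.0326).

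The IFIT proteins bind the ends of viral RNA and block its translation. Ifit2, Ifit3 and Ifit1 lie in this order on chromosome 19, within 34550694 to 34650009. Ifit3 had 2.6, 3.46 and 22.15 FPKM in Tnfr2-/- libraries, 1.67, 0.55 and 0.35 with TNF+TGF-β, 0.59, 1.23 and 0.57 with IL-6+TGF-β, against 20.88, 3.6 and 23.68 in Th0. The library numbered 4 was at the level of Th0 replicates 1 and 3, while the other Tnfr2-/- libraries were just below Th0 replicate 2. Against Th0, Ifit3 fell with TNF+TGF-β (−2.93 ± 0.71, adjusted p = 0.0087) and with IL-6+TGF-β (−2.93 ± 0.71, adjusted p = 0.0107). The second of these missed the threshold without Th0 replicate 3 (−2.50, adjusted p = 0.0501), with a range over its alternatives of 0.0019 to 0.0501. In Tnfr2-/- cells Ifit3 was higher by 2.02 ± 0.71 than in WT cells with TNF+TGF-β (adjusted p = 0.0428), a call that was also lost without any 1 of the 3 WT libraries (1.82 to 2.31, adjusted p 0.0543 to 0.121; range over all its alternatives 0.022 to 0.198).

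Ifit2 ran the other way in Tnfr2-/- cells. It had 2.3, 2.05 and 1.45 FPKM in Tnfr2-/- libraries, 3.18, 3.02 and 3.14 with TNF+TGF-β, 1.8, 2.57 and 2.19 with IL-6+TGF-β, against 5.42, 4.09 and 5.81 in Th0. Its Tnfr2-/- libraries lay below all WT libraries with TNF+TGF-β, by 0.50 ± 0.18 (adjusted p = 0.0449). That call was lost without any 1 of the WT TNF+TGF-β libraries and without Tnfr2-/- replicate 2 or 4 (adjusted p 0.0769 to 0.145), and over all its alternatives the adjusted p was 0.0291 to 0.235. Against Th0, Ifit2 was lower with IL-6+TGF-β (−0.93, adjusted p = 0.00239) and with TNF+TGF-β (−0.56, adjusted p = 0.0317). The TNF+TGF-β call was lost without any 1 of those 3 libraries or without Th0 replicate 1 or 3 (−0.48 to −0.57, adjusted p 0.0685 to 0.126; range over its alternatives 0.0134 to 0.126). Ifit1 stayed at 4.13 FPKM or less and would not have passed the filter without Th0. It was lower than in Th0 with TNF+TGF-β (−1.39, adjusted p = 0.0161) and IL-6+TGF-β (−1.43, adjusted p = 0.017). Both of its calls were lost without Th0 replicate 3 (−1.23, adjusted p = 0.0643, and −1.27, adjusted p = 0.0709). The first was also lost without TNF+TGF-β replicate 1 (−1.34, adjusted p = 0.0518) and the second without IL-6+TGF-β replicate 3 (−1.42, adjusted p = 0.0503). Over their alternatives the adjusted p was 0.00112 to 0.0643 and 0.00182 to 0.0709. Ifit3 has a near-identical copy (Ifit3b) and Ifit1 has a related gene (Ifit1bl1), and how reads were divided within each pair is uncertain.

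The OAS enzymes make oligoadenylates that switch on RNase L. Of the family, Oas1a, Oasl1 and Oasl2 fell against Th0 with both cytokine pairs, with differences of −1.50 to −1.79 with TNF+TGF-β and of −1.42 to −2.40 with IL-6+TGF-β. Oas3 passed the filter only through the 3 Th0 libraries, so its differences of −1.19 and −0.96 are a description. Oasl2 had 1.88, 1.52 and 5.94 FPKM in Tnfr2-/- libraries, 1.65, 2.1 and 1.39 with TNF+TGF-β, 0.91, 0.76 and 0.64 with IL-6+TGF-β, against 8.76, 4.96 and 12.84 in Th0. It did not pass the test between Tnfr2-/- and WT cells with TNF+TGF-β (0.45, adjusted p = 0.357), and those libraries overlapped. Its neighbour on chromosome 5, Oasl1, which in mouse restrains production of IRF7 protein, had 3.09, 4.08 and 7.48 FPKM in Tnfr2-/- libraries, 1, 0.94 and 0.74 with TNF+TGF-β, 0.59, 0.34 and 0.59 with IL-6+TGF-β, against 4.24, 3.29 and 5.75 in Th0. Oasl1 in Tnfr2-/- cells overlapped Th0 and was higher than in WT cells with TNF+TGF-β by 1.57 ± 0.26 (adjusted p = 0.000654). Oas1a was likewise higher in Tnfr2-/- cells (1.48 ± 0.35, adjusted p = 0.00657). Its mean was 5.1 ± 3.32 FPKM in Tnfr2-/- cells and 1.05 ± 0.572 FPKM in WT cells with TNF+TGF-β (SD, n = 3 each), and Oas1a shares sequence with near-identical copies. Its fall with IL-6+TGF-β (−1.42, adjusted p = 0.012) missed the threshold without IL-6+TGF-β replicate 2 (−1.16, adjusted p = 0.0529; range over its alternatives 0.00674 to 0.0529). Oas3 did not pass between Tnfr2-/- and WT cells with TNF+TGF-β (−0.03). Oas2 stayed at or below 0.98 FPKM and was not tested.

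Among the other antiviral effectors, Ifi27l2a, an interferon-inducible mitochondrial protein gene, was the most abundant of all 36 genes per length. It had 288.2, 418.01 and 697.54 FPKM in Tnfr2-/- libraries, 589.1, 581.81 and 511.36 with TNF+TGF-β, 245.65, 133.33 and 144.68 with IL-6+TGF-β, against 1429.03, 779.37 and 1282.69 in Th0. The IL-6+TGF-β libraries lay below all others and the Th0 libraries above all others. Ifi27l2a fell with IL-6+TGF-β by 2.74 ± 0.32 (adjusted p = 6.76e-05) and was higher with TNF+TGF-β than under IL-6+TGF-β by 1.73 ± 0.32 (adjusted p = 0.00334). Its fall with TNF+TGF-β (−1.01 ± 0.32, adjusted p = 0.0333) was lost without any 1 of the TNF+TGF-β libraries or without Th0 replicate 1 or 3 (−0.84 to −1.05, adjusted p 0.0714 to 0.122; range over its alternatives 0.00733 to 0.122).

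Rtp4, an interferon-induced protein that binds viral RNA, had 4.56, 6.77 and 19.93 FPKM in Tnfr2-/- libraries, 1.45, 2.07 and 1.09 with TNF+TGF-β, 2.61, 1.77 and 1.71 with IL-6+TGF-β, against 11.69, 7.24 and 14.81 in Th0. All Tnfr2-/- libraries were above all treated WT libraries, and the library numbered 4 was above Th0. Rtp4 was higher in Tnfr2-/- than in WT cells with TNF+TGF-β by 1.95 ± 0.41 (adjusted p = 0.00324) and fell against Th0 with TNF+TGF-β by 2.24 ± 0.41 (adjusted p = 0.00157) and with IL-6+TGF-β by 1.98 ± 0.41 (adjusted p = 0.00421). Samd9l, which restrains viral and cell growth, was the single gene called higher than Th0 in Tnfr2-/- cells. Its values were 10.87, 25.58 and 54.22 FPKM in Tnfr2-/- libraries, 7.48, 8.36 and 4.98 with TNF+TGF-β, 5.19, 3.03 and 4.27 with IL-6+TGF-β, against 6.43, 4.92 and 4.9 in Th0. The 3 Tnfr2-/- values differed widely and all lay above all WT values. Samd9l was higher by 1.73 ± 0.42 than in WT cells with TNF+TGF-β (adjusted p = 0.00784) and by 2.02 ± 0.42 than in Th0 (adjusted p = 0.00222).

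Bst2, whose product tetherin holds budding virus at the cell surface, went down in both steps. It had 36.25, 51.47 and 38.38 FPKM in Tnfr2-/- libraries, 65.63, 57.71 and 72.21 with TNF+TGF-β, 86.05, 71.72 and 81 with IL-6+TGF-β, against 132.09, 127.19 and 125.7 in Th0. No Tnfr2-/- library overlapped a WT library. Bst2 was lower in Tnfr2-/- than in WT cells with TNF+TGF-β by 0.63 ± 0.14 (adjusted p = 0.00486) and lower than in Th0 with TNF+TGF-β (−0.97, adjusted p = 0.000331) and with IL-6+TGF-β (−0.69, adjusted p = 0.00421).

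The exonuclease gene Isg20 averaged 18.3 ± 3.39 FPKM in Tnfr2-/- cells, 10.9 ± 0.928 with TNF+TGF-β, 8.29 ± 1.13 with IL-6+TGF-β and 41 ± 7.19 in Th0 (SD, n = 3 each), with no overlap between any of these groups. Trim30a, a brake on Toll-like receptor signalling with near-identical copies, was higher in Tnfr2-/- than in WT cells with TNF+TGF-β (0.88, adjusted p = 0.0062). The pro-apoptotic gene Xaf1 fell with TNF+TGF-β (−1.11, adjusted p = 0.0103) and IL-6+TGF-β (−1.86, adjusted p = 0.000409). Ifi35 fell against Th0 with TNF+TGF-β (−0.72, adjusted p = 0.0145), a call lost without Th0 replicate 1, Th0 replicate 3 or TNF+TGF-β replicate 2 (−0.65 to −0.66, adjusted p 0.0572 to 0.0589; range over its alternatives 0.00342 to 0.0589). The dynamin-like GTPase gene Mx1 was 0.77, 1.48 and 4.91 FPKM in Tnfr2-/- libraries, 0.68 to 1.08 with TNF+TGF-β, 0.05 to 0.08 with IL-6+TGF-β and 0.95 to 1.65 in Th0. Mx1 fell with IL-6+TGF-β against Th0 (−1.08, adjusted p = 0.0404). The Mx1 call was lost without any 1 of the 6 libraries (−0.96 to −1.18, adjusted p 0.0651 to 0.118; range over its alternatives 0.00202 to 0.118). Mx2 stayed at or below 2.27 FPKM and was called in none of the 5 comparisons of the main fit. With a pseudocount of 0.1 it was called lower with IL-6+TGF-β against Th0 (−2.07, adjusted p = 0.0489). Mx2 would not have passed the filter without Th0, so this call was favoured by the filter and is a description. Rsad2, which encodes viperin, reached at most 0.77 FPKM and Ifi44 at most 0.61 FPKM, and neither was tested. Ifi44 was at 0.61, 0.43 and 0.52 FPKM in Th0 and at or below 0.05 FPKM elsewhere.

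**Figure D5:**
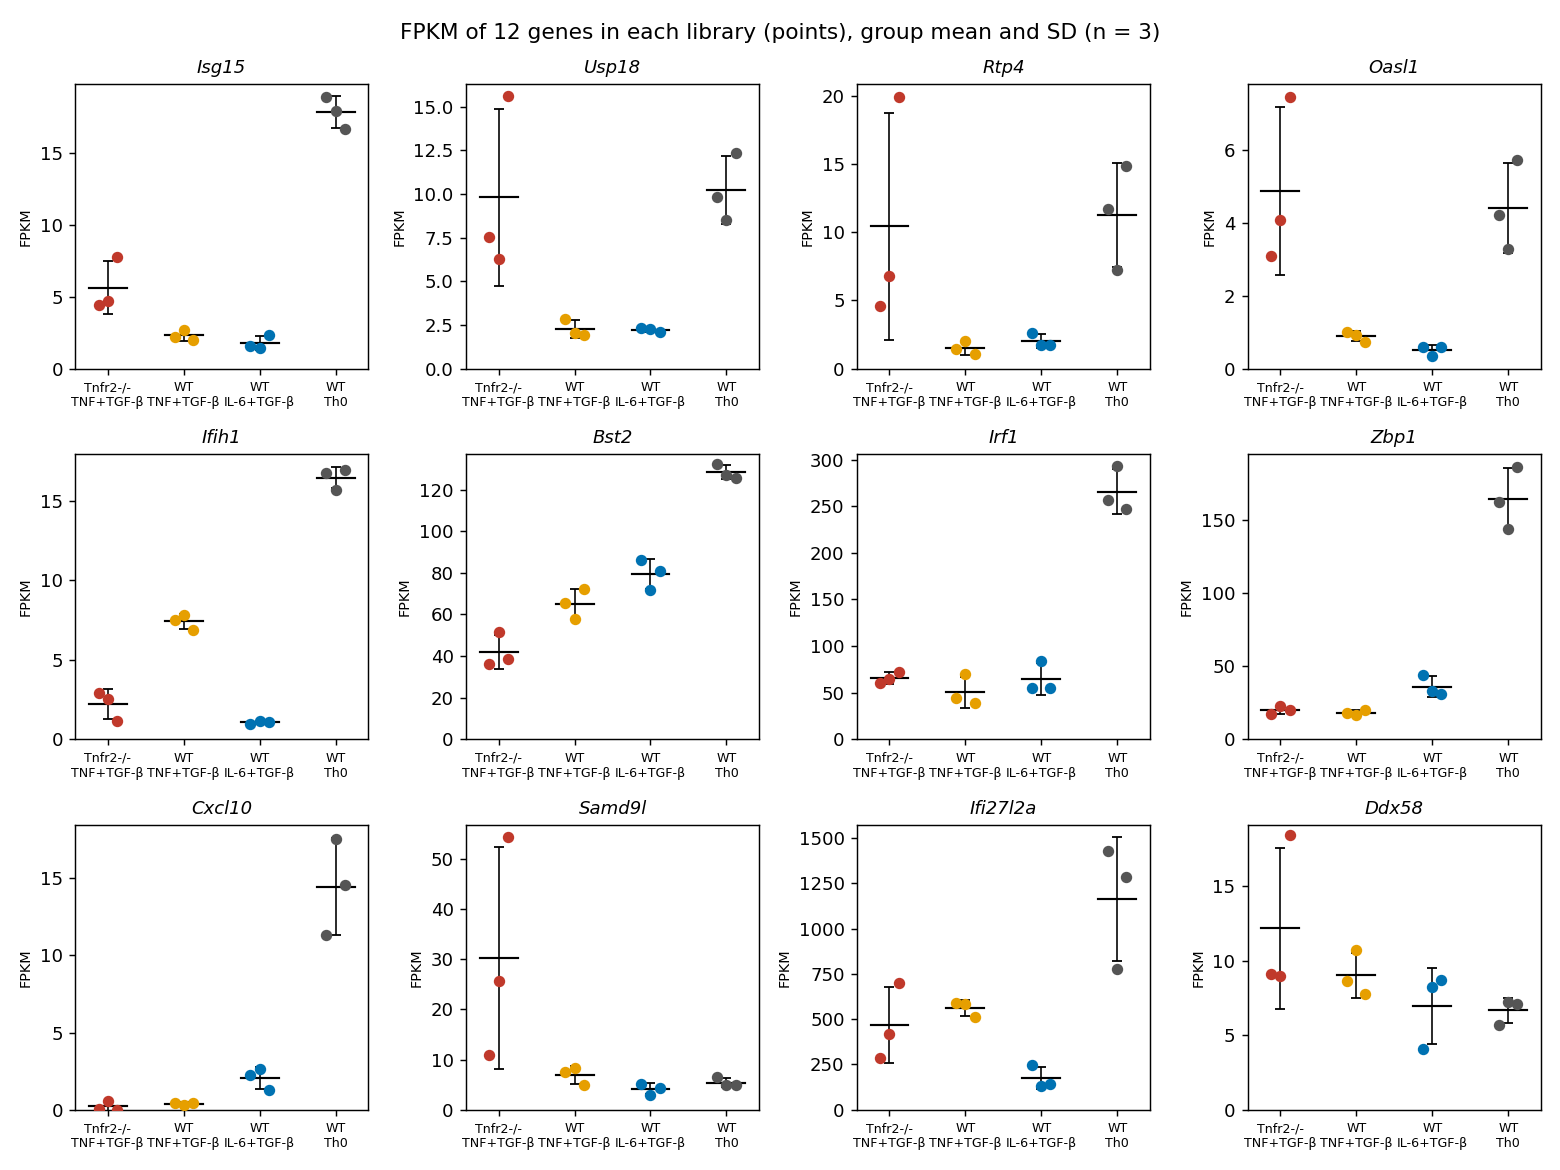
FPKM of 12 genes in each library (points) by group, with group mean and SD (lines and whiskers, n = 3), each panel from 0 on its own linear scale. Usp18, Rtp4 and Oasl1 in Tnfr2-/- cells overlap Th0, Isg15 is between Th0 and the treated WT groups, Zbp1, Irf1 and Cxcl10 are highest in Th0, Ifih1 is high in Th0, intermediate with TNF+TGF-β and low in the other groups, and Samd9l is highest in Tnfr2-/- cells.

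The sensors did not move as a block. Ifih1 encodes MDA5, which detects long double-stranded RNA. Ifih1 (ENSMUSG00000026896.14, chromosome 2, 62595798 to 62646255) had 2.92, 2.55 and 1.17 FPKM in Tnfr2-/- libraries, 7.54, 7.83 and 6.89 with TNF+TGF-β, 0.97, 1.14 and 1.11 with IL-6+TGF-β, against 16.79, 15.7 and 16.93 in Th0. None of the 4 groups overlapped. Ifih1 was lower in Tnfr2-/- than in WT cells with TNF+TGF-β by 1.43 ± 0.20 (adjusted p = 0.000226), and higher with TNF+TGF-β than under IL-6+TGF-β by 2.02 ± 0.20 (adjusted p = 3.17e-05). Against Th0 it fell by 1.05 ± 0.20 with TNF+TGF-β (adjusted p = 0.00212) and by 3.08 ± 0.20 with IL-6+TGF-β (adjusted p = 6.18e-07). RIG-I (Ddx58) and PKR (Eif2ak2), which detect short and double-stranded RNA, and the RNA-editing enzyme ADAR passed no test in the 5 comparisons with all 12 libraries. Their means over the groups were 6.67 to 12.2 FPKM for Ddx58, 5.77 to 9.3 for Eif2ak2 and 18.8 to 20.9 for Adar. When Tnfr2-/- replicate 1 was left out, 2 calls were made in Tnfr2-/- cells. Eif2ak2 was higher than in WT cells with TNF+TGF-β (0.85, adjusted p = 0.0301) and Ddx58 was higher than in Th0 (0.87, adjusted p = 0.0477).

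Zbp1, a sensor of Z-form nucleic acid that can start necroptosis, had 17.17, 22.91 and 19.95 FPKM in Tnfr2-/- libraries, 17.67, 16.81 and 20.07 with TNF+TGF-β, 43.98, 32.64 and 31.26 with IL-6+TGF-β, against 162.23, 143.62 and 186.24 in Th0. The Tnfr2-/- and WT libraries with TNF+TGF-β overlapped, and the other groups were separate. Zbp1 (ENSMUSG00000027514.14, chromosome 2, 173206612 to 173218923) fell against Th0 by 3.10 ± 0.16 with TNF+TGF-β (adjusted p = 1.06e-07) and by 2.17 ± 0.16 with IL-6+TGF-β (adjusted p = 1.66e-06). The direct difference of TNF+TGF-β from IL-6+TGF-β was also negative (−0.93 ± 0.16, adjusted p = 0.00191). Dhx58, whose product LGP2 modulates RIG-I and MDA5, had 11.25, 14.06 and 12.7 FPKM in Tnfr2-/- libraries, 9.29, 11.64 and 7.11 with TNF+TGF-β, 5.32, 4.7 and 5.97 with IL-6+TGF-β, against 12.93, 9.87 and 11.08 in Th0. Its IL-6+TGF-β libraries lay below all others. Dhx58 was higher with TNF+TGF-β than under IL-6+TGF-β (0.69 ± 0.18, adjusted p = 0.0257), a call lost without IL-6+TGF-β replicate 1 or 2 or TNF+TGF-β replicate 1 or 2 (0.53 to 0.69, adjusted p 0.0576 to 0.119; range over its alternatives 0.0122 to 0.119).

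IRF1 is an interferon-γ-induced factor that binds elements like the ISRE. Irf1 had 59.89, 64.98 and 72.46 FPKM in Tnfr2-/- libraries, 43.82, 69.51 and 38.48 with TNF+TGF-β, 55.27, 84.34 and 54.63 with IL-6+TGF-β, against 256.71, 292.91 and 247.38 in Th0. The treated groups overlapped, and all lay well below Th0. Against Th0, the Irf1 difference was −1.998 ± 0.22 in Tnfr2-/- cells (adjusted p = 3.01e-05), −2.41 ± 0.22 with TNF+TGF-β (adjusted p = 7.19e-06) and −2.05 ± 0.22 with IL-6+TGF-β (adjusted p = 2.83e-05). IRF9 is the DNA-binding part of ISGF3. Irf9 had 43.61, 47.08 and 70.04 FPKM in Tnfr2-/- libraries, 24.12, 27.45 and 21.07 with TNF+TGF-β, 33.53, 26.48 and 33.59 with IL-6+TGF-β, against 46.02, 40 and 49.02 in Th0. Tnfr2-/- libraries overlapped Th0 and were above all treated WT libraries. Irf9 was higher in Tnfr2-/- than in WT cells with TNF+TGF-β by 1.09 ± 0.18 (adjusted p = 0.000742) and fell against Th0 with TNF+TGF-β by 0.87 ± 0.18 (adjusted p = 0.0037). Irf7, which amplifies interferon production, was 9.94, 13.52 and 33.99 FPKM in Tnfr2-/- libraries, 6.3 to 11.76 with TNF+TGF-β, 4.07 to 6.09 with IL-6+TGF-β and 10.62 to 19.96 in Th0. Irf7 fell with IL-6+TGF-β (−1.42, adjusted p = 0.0208), a call lost without Th0 replicate 1 or 3 or IL-6+TGF-β replicate 3 (−1.26 to −1.31, adjusted p 0.0755 to 0.0801; range over its alternatives 0.00727 to 0.0801).

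PARP9 and DTX3L form a complex that takes part in interferon signalling, and their genes lie beside Parp14 on chromosome 16. Dtx3l and Parp9 overlap at their ends on opposite strands. Reads from that stretch cannot be assigned, because strand is not recorded by the library kit. Parp9 had 21.23, 16.71 and 25.48 FPKM in Tnfr2-/- libraries, 21.59, 23.35 and 17.53 with TNF+TGF-β, 26.07, 34.99 and 33.79 with IL-6+TGF-β, against 31.2, 34.77 and 32.19 in Th0. The 2 groups with TNF+TGF-β lay below Th0 and below IL-6+TGF-β. Parp9 fell with TNF+TGF-β against Th0 (−0.64 ± 0.17, adjusted p = 0.0154), a call lost without TNF+TGF-β replicate 3 (−0.52, adjusted p = 0.0604) and under TPM scaling (−0.47, adjusted p = 0.112); its adjusted p ran from 0.00563 to 0.112. Its difference from IL-6+TGF-β (−0.58, adjusted p = 0.0469) was lost without any 1 of those 6 libraries except IL-6+TGF-β replicate 1 (−0.47 to −0.66, adjusted p 0.0613 to 0.166; range over its alternatives 0.0237 to 0.166).

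Dtx3l had 7.45, 6.12 and 6.17 FPKM in Tnfr2-/- libraries, 11.41, 13.12 and 9.32 with TNF+TGF-β, 9.37, 17.48 and 13.44 with IL-6+TGF-β, against 12.27, 17.31 and 12.65 in Th0. The Tnfr2-/- libraries lay below every WT library, by 0.69 ± 0.22 against TNF+TGF-β (adjusted p = 0.0274). That call was lost without WT replicate 1 or 2 or Tnfr2-/- replicate 2 or 4 (−0.58 to −0.68, adjusted p 0.0743 to 0.0937; range over its alternatives 0.019 to 0.0937). Parp14, an ADP-ribosyltransferase, moved the other way, with 8.54, 12.85 and 23.44 FPKM in Tnfr2-/- libraries, 7.37, 7.37 and 6.39 with TNF+TGF-β, 6.31, 8.11 and 7.36 with IL-6+TGF-β, against 14.39, 12.15 and 13.21 in Th0. It was higher in Tnfr2-/- than in WT cells with TNF+TGF-β by 0.88 ± 0.27 (adjusted p = 0.0223), a call lost without WT replicate 1 or 3 or the library numbered 4 (0.52 to 0.91, adjusted p 0.0519 to 0.072; range over its alternatives 0.00169 to 0.094). Its fall with TNF+TGF-β against Th0 (−0.82, adjusted p = 0.0338) was lost without any 1 of the 6 libraries (−0.77 to −0.88, adjusted p 0.0539 to 0.102; range over its alternatives 0.00183 to 0.102).

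Cxcl10, a chemokine that draws cells bearing CXCR3, had the largest fall of the 33 tested genes with TNF+TGF-β. It had 0.07, 0.58 and 0 FPKM in Tnfr2-/- libraries, 0.44, 0.29 and 0.44 with TNF+TGF-β, 2.25, 2.62 and 1.29 with IL-6+TGF-β, against 11.28, 17.52 and 14.54 in Th0. The Tnfr2-/- and WT libraries with TNF+TGF-β overlapped and were below 1 FPKM. Cxcl10 (ENSMUSG00000034855.13, chromosome 5, 92346638 to 92348889) fell against Th0 by 3.46 ± 0.24 with TNF+TGF-β (adjusted p = 8.47e-07) and by 2.35 ± 0.24 with IL-6+TGF-β (adjusted p = 2.04e-05). Its difference between TNF+TGF-β and IL-6+TGF-β was −1.11 ± 0.24 (adjusted p = 0.00787).

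The type I and type III interferon genes themselves were nearly silent. Of 19 ligand genes, 16 were listed at 0 in all 12 libraries, among them Ifnb1 and every Ifna gene looked for. The highest value of a type I or type III ligand was 0.27 FPKM, for Ifnz. Ifng, the type II interferon gene, had 1.4, 2.22 and 3.78 FPKM in Tnfr2-/- libraries, 3, 1.68 and 6.77 with TNF+TGF-β, 16.27, 10.9 and 20.17 with IL-6+TGF-β, against 7.32, 27.74 and 17.28 in Th0. It was below Th0 in Tnfr2-/- cells (−2.30, adjusted p = 0.00195) and in WT cells with TNF+TGF-β (−1.91, adjusted p = 0.00975), and the difference between these did not pass the test (−0.39, adjusted p = 0.545).

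Of 11 receptor and JAK-STAT genes, 5 were higher and 2 lower in Tnfr2-/- than in WT cells with TNF+TGF-β, where 19.9% and 17.5% of all tested genes were. Against Th0, TNF+TGF-β gave 8 higher and 1 lower (18.7% and 13% of all tested genes), and IL-6+TGF-β gave 4 higher and 2 lower (14.1% and 9.15%). Stat2 was lower with IL-6+TGF-β (−0.78, adjusted p = 0.0315) and did not pass with TNF+TGF-β (−0.66, adjusted p = 0.0517). Ifnar1 rose against Th0 with TNF+TGF-β (0.55, adjusted p = 0.0163), and Ifnar2 was higher in Tnfr2-/- than in WT cells with TNF+TGF-β (0.42, adjusted p = 0.0294). Jak2 rose with TNF+TGF-β (1.88, adjusted p = 0.000163) and was lower in Tnfr2-/- cells (−1.54, adjusted p = 0.000618). The part of the B cell and myeloid markers in these differences was not tested.

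In the regulators, Irf5 rose with TNF+TGF-β (2.08, adjusted p = 1.53e-06) and fell with IL-6+TGF-β (−1.21, adjusted p = 0.000116) against Th0. Socs3, a STAT3-driven inhibitor of cytokine receptors, rose with IL-6+TGF-β (4.58, adjusted p = 1.38e-07). Socs1, an inhibitor of JAK kinases, was lower in Tnfr2-/- than in WT cells with TNF+TGF-β (−0.72, adjusted p = 0.000727) and fell against Th0 with TNF+TGF-β (−0.69, adjusted p = 0.00113). Of 11 tested sensing adaptors, 5 were higher and 2 lower in Tnfr2-/- cells, beside 19.9% and 17.5% of all tested genes. Unc93b1, which carries Toll-like receptors to endosomes, was higher by 2.62 (adjusted p = 1.9e-05), and Tmem173, which encodes STING, was lower (−1.005, adjusted p = 3.99e-05). All 8 B cell markers (median 3.03) and 7 of 10 myeloid markers (median 1.41 over all 10) were higher in the same comparison. Their part in these differences was not tested.

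A further list of 69 interferon-induced genes, of which 63 were tested, had 30 lower and 5 higher with TNF+TGF-β against Th0 (13% and 18.7% of all tested genes), and 34 lower and 2 higher with IL-6+TGF-β (9.15% and 14.1%). In Tnfr2-/- against WT cells with TNF+TGF-β, 27 were higher and 5 lower (19.9% and 17.5% of all tested genes), with a median of 0.39 against 0.00 (0.002) over all tested genes. The largest rise in Tnfr2-/- cells was that of Ifi208 (3.52), with 11.55, 10.88 and 19.21 FPKM in Tnfr2-/- libraries, against 0.46, 0.12 and 0.23 FPKM in WT libraries with TNF+TGF-β. Ifi208 was at or below 0.55 FPKM in every WT library. Ifitm2, which blocks virus entry, ran the opposite way, with 41.24, 41.93 and 34.12 FPKM in Tnfr2-/- libraries, 290.73, 320.39 and 265.31 with TNF+TGF-β, 18.52, 18.32 and 11.4 with IL-6+TGF-β, against 153.53, 151.86 and 147.26 in Th0. As for Ifih1, none of the 4 groups overlapped, although here the WT cells with TNF+TGF-β were above Th0. Ifitm2 was lower in Tnfr2-/- than in WT cells with TNF+TGF-β by 2.87 (adjusted p = 9.33e-07). The part of the B cell and myeloid markers in the differences of this list was not tested.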

How the data were processed

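Bulk RNA had been sequenced in 12 libraries, 3 per group. Per the submitters' processing notes, Trimmomatic, STAR 2.5.4, RSEM 1.3.1 and mm10 were used; no source used here names the annotation. Per the file headers the deposited values were gene-level RSEM results. The quantity was not named and the authors' values were read as FPKM, because the library sums differed (689045 to 828161). Depth is unknown from FPKM. Genes reaching 1 FPKM in 3 or more libraries were fitted on log2(FPKM + 1) with limma 3.58.1 (R 4.3.3; variance prior following the mean; a mean for each of the 4 groups, all 12 libraries, without covariates), with Benjamini-Hochberg adjustment over 13082 genes in each of 5 comparisons. Genes are called at an adjusted p under 0.05, and every adjusted p is from this fit or its alternatives. The log scale understates changes of low genes. Of the 33 tested interferon genes, 23 had 1 FPKM or more in all 12 libraries, and Ifit1, Oas3 and Mx2 passed the filter only because of Th0, where they are high. Alternatives were another pseudocount (0.1), no filter, a filter of 5 FPKM, TPM and median-ratio scaling, a fit of the 6 compared libraries, a replicate block and leaving out each library. Gene positions are from GENCODE M21 (GRCm38). Every one of the 36 genes is reported. Those given in every library are, per role, the most abundant, the one with the largest difference between TNF+TGF-β and Th0 and any called against its group, and Usp18, Oasl1, Irf9, Irf7, Mx1 and Ifi44 were added after their values were seen. Of 125 other interferon genes listed, 124 were in the table and 99 were tested; up to 3 called genes per list were named, with Tnfrsf1b, Ifnar1, Ifnar2, Stat2 and Ifng; a gene this rule names is not reported here. The genes and lists were chosen with earlier results of these data known. The fit was tested on simulated data.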

Additional observations from a re-analysis of the deposited data

How the results depend on the processing

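No direction called for an interferon gene was turned round by an alternative. Of the genes called, 17 of 23 (TNF+TGF-β against Th0), 16 of 22 (IL-6+TGF-β against Th0), 4 of 6 (between the cytokine pairs), 8 of 15 (Tnfr2-/- against WT with TNF+TGF-β) and 14 of 14 (Tnfr2-/- with TNF+TGF-β against Th0) were called under every alternative that could be fitted. The 8 were Isg15, Usp18, Oas1a, Oasl1, Rtp4, Trim30a, Irf9 and Ifih1. Oas3 is counted among the 17 and the 14, although it passed the filter only through the Th0 libraries. It could be fitted under 9 alternatives, against 13 for Isg15, so its place in these counts was favoured by the filter. The cause of the changes below was not tested. The median with IL-6+TGF-β against Th0 was −2.001 with a pseudocount of 0.1, −1.416 with a filter of 5 FPKM and −1.416 in a fit of the 6 compared libraries. With no filter on low values, 2 interferon genes were lower in Tnfr2-/- than in WT cells with TNF+TGF-β. TPM scaling moved the median of all genes to 0.221 with TNF+TGF-β against Th0, where that of the interferon genes was −0.798, and to −0.105 in Tnfr2-/- against WT cells with TNF+TGF-β, where theirs was 0.393. Searching promoters for a GAAA and a GAA block 2 bases apart found 16 genes (61.5%, against 9.76% of all genes).

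Leaving out 1 library at a time gave the following ranges. Among all tested genes, 1074 to 1478 were lower with TNF+TGF-β and 756 to 1630 with IL-6+TGF-β against Th0, 575 to 844 were higher and 469 to 654 lower with TNF+TGF-β when set against IL-6+TGF-β, and 1480 to 2659 were lower in Tnfr2-/- against WT cells with TNF+TGF-β. The median of the interferon genes was −1.410 to −1.080 with IL-6+TGF-β against Th0, 0.072 to 0.232 between the cytokine pairs, and −0.724 to −0.072 in Tnfr2-/- cells against Th0. In Tnfr2-/- against WT cells with TNF+TGF-β, 9 to 15 interferon genes were higher and 2 to 4 lower, and against Th0 1 to 2 were higher. Rtp4 in Tnfr2-/- cells against Th0, which was not called with all libraries (−0.29), was −0.847 to 0.109, with the highest value without Tnfr2-/- replicate 1.

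The replicate numbers were not taken to pair the libraries. Over 15 pairs of libraries with the same number, the correlation of their deviations from the group means was −0.284 to 0.344, and 5 were over 0.1. With a replicate block, 7 interferon genes were higher and 1 lower in Tnfr2-/- against WT cells with TNF+TGF-β, 1353 of all genes were lower there, and the median in Tnfr2-/- cells against Th0 was −0.664. Isg20, Bst2 and Samd9l were not called in Tnfr2-/- against WT cells under the block (adjusted p = 0.0543, 0.053 and 0.054, limma). Their differences were then 0.59, −0.55 and 1.11. The block also added lower calls against Th0. With IL-6+TGF-β these were Mx2 (−0.83, adjusted p = 0.0167), Irf9 (−0.52, adjusted p = 0.0384) and Parp14 (−0.79, adjusted p = 0.0101). In Tnfr2-/- cells they were Ifit1 (−0.99, adjusted p = 0.0232) and Mx2 (−0.66, adjusted p = 0.0472). Ifit1 and Mx2 passed the filter only because of Th0, so these lower calls of theirs were favoured by the filter.

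Depth is unknown, so no counting interval is given, and values below 1 FPKM are imprecise. Without Tnfr2-/- Th0 cells, genotype and response to cytokines cannot be told apart against Th0.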
